A study of Capra hircus with 20 samples.

Results

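The core glycolysis enzymes described here are HK1, HK2, GPI, ALDOA, TPI1, GAPDH, PGK1, PGAM1, ENO1 and PKM, 10 genes that catalyse steps between glucose and pyruvate. They were taken by gene symbol from the mRNA table of a goat (Capra hircus) series, and the FPKM of their transcripts was summed per symbol. All 10 were found, with 15 transcripts between them, among 20587 symbols and 43766 transcripts, and all 10 were among the 11432 symbols that reached a mean of 1 FPKM over the 20 libraries and were tested. FPKM is a number of fragments divided by transcript length and by the mapped reads of the library, so levels can be compared between genes.

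The cells came from 7-day-old male Jianzhou Daer goats, were expanded in DMEM/F12 with 10% fetal bovine serum and were used at passage 3. Intramuscular preadipocytes (IMPA) were isolated from longissimus dorsi muscle and subcutaneous preadipocytes (SPA) from subcutaneous fat, and both were collected on day 0. Intramuscular adipocytes (IMA) and subcutaneous adipocytes (SA) are the same kinds of cells after 3 days in that medium with oleic acid. Each group has 5 libraries. The labels number the libraries but do not tie a number to an animal, so p-values measure the spread between these libraries. No group kept for 3 days without oleic acid was analysed here, so oleic acid and time in culture cannot be told apart.

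Glycolysis splits glucose into pyruvate in the cytosol with a net gain of ATP and NADH. Hexokinases (HK1, HK2) trap glucose as glucose 6-phosphate, GPI turns it into fructose 6-phosphate, and after phosphofructokinase aldolase A (ALDOA) cleaves the hexose into triose phosphates that TPI1 interconverts. GAPDH, PGK1, PGAM1, ENO1 and PKM carry the trioses to pyruvate, with ATP made at PGK1 and PKM. In fat cells the pathway also supplies glycerol 3-phosphate for triglycerides and acetyl groups for fatty acids, and in muscle fibres it supplies ATP for contraction. Many of these genes are classical targets of the hypoxia-inducible factor HIF1.

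The FPKM of a library summed to between 373889 and 413880 over the mRNA table, and between 15126 and 16961 symbols were above 0. The paper reports a higher share of mapped reads and a higher GC content in each IMPA library than in any library of the other groups. In comparisons that include IMPA this difference cannot be told apart from the group, and its part in them was not tested. Read counts were not used here, and how many reads lie behind any one level is therefore unknown. Several of these genes have near-identical processed copies in mammalian genomes, and how fragments shared with copies were counted is not given in the sources used here. The cell type labels were checked against marker genes. In the cells labelled intramuscular, 17 measured skeletal muscle markers summed to 3923 ± 262 FPKM in IMPA and 13569 ± 341 FPKM in IMA (SD, n = 5), with MYOG, a myogenic regulator, at 649 ± 66.9 and 736 ± 35.0 FPKM. The same markers summed to 14.7 ± 7.92 FPKM in SPA and 12.2 ± 0.926 FPKM in SA. Of 14 adipocyte markers found, 9 had a mean under 1 FPKM. PPARG, ADIPOQ, LEP, PLIN1 and LPL did not exceed 1.26, 0.596, 0.257, 0.438 and 1.61 FPKM in any library, in preadipocytes or adipocytes. The other 5 passed the minimum level, and at an adjusted p under 0.05, 2 of them rose and 1 fell in IMA and 1 rose and 2 fell in SA. Of all genes tested, 19.9% rose and 40.2% fell in IMA, and 26.1% rose and 26% fell in SA. CD36, a fatty acid transporter, rose in both (0.252 to 4.91 FPKM in intramuscular and 0.0679 to 0.934 FPKM in subcutaneous cells, log2 changes 2.24 and 0.84, adjusted p = 2.85e-10 and 2.62e-05). It reached the minimum level only through IMA. The 1 marker counted as rising in SA is therefore CD36 at a mean under 1 FPKM in both subcutaneous groups. CIDEA, a lipid droplet protein, had 27.8, 44.4, 7.47 and 8.79 FPKM in IMPA, IMA, SPA and SA, CEBPA at most 9.85 FPKM in a library, and CIDEC 4.65 and 4.35 FPKM in SPA and SA. Summed endothelial markers reached at most 1.19 FPKM in a library.

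The 10 genes differed widely in level among themselves, with the hexokinases far below the rest. GAPDH, which oxidises glyceraldehyde 3-phosphate, was the highest with a mean of 1298 FPKM over the 20 libraries and ranked 44 among the 20587 symbols. ENO1 followed with 851 FPKM, and ALDOA (621), PKM (593), PGAM1 (399), PGK1 (391), TPI1 (318) and GPI (132 FPKM) lay below it. Of the hexokinases, HK1 was at rank 1271 with 46.5 FPKM and HK2 at rank 5200 with 10.9 FPKM. Summed over the 10 genes, FPKM was 3503 ± 169 in IMPA, 4002 ± 182 in IMA, 6374 ± 63.8 in SPA and 4765 ± 76.5 in SA (SD, n = 5), which is 0.904%, 1.01%, 1.67% and 1.19% of the mRNA FPKM. Each SPA library exceeded each SA library in this sum, each SA library exceeded each IMA library, and the IMPA and IMA libraries overlapped, with a highest IMPA value of 3742 FPKM and a lowest IMA value of 3685 FPKM.

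SPA was the group with the highest mean for each of the 10 genes. For 9 of them every SPA library lay above every library of the next group, and HK1 was the exception, with a lowest SPA value of 52.0 FPKM and a highest SA value of 52.8 FPKM. The order below SPA differed between genes. SA came second for 7 genes, and IMA came second for HK2, TPI1 and GAPDH, where its libraries overlapped those of the next group. IMPA was lowest for 7 genes, IMA for ENO1 and PKM, and SA for HK2.

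**Figure D1:**
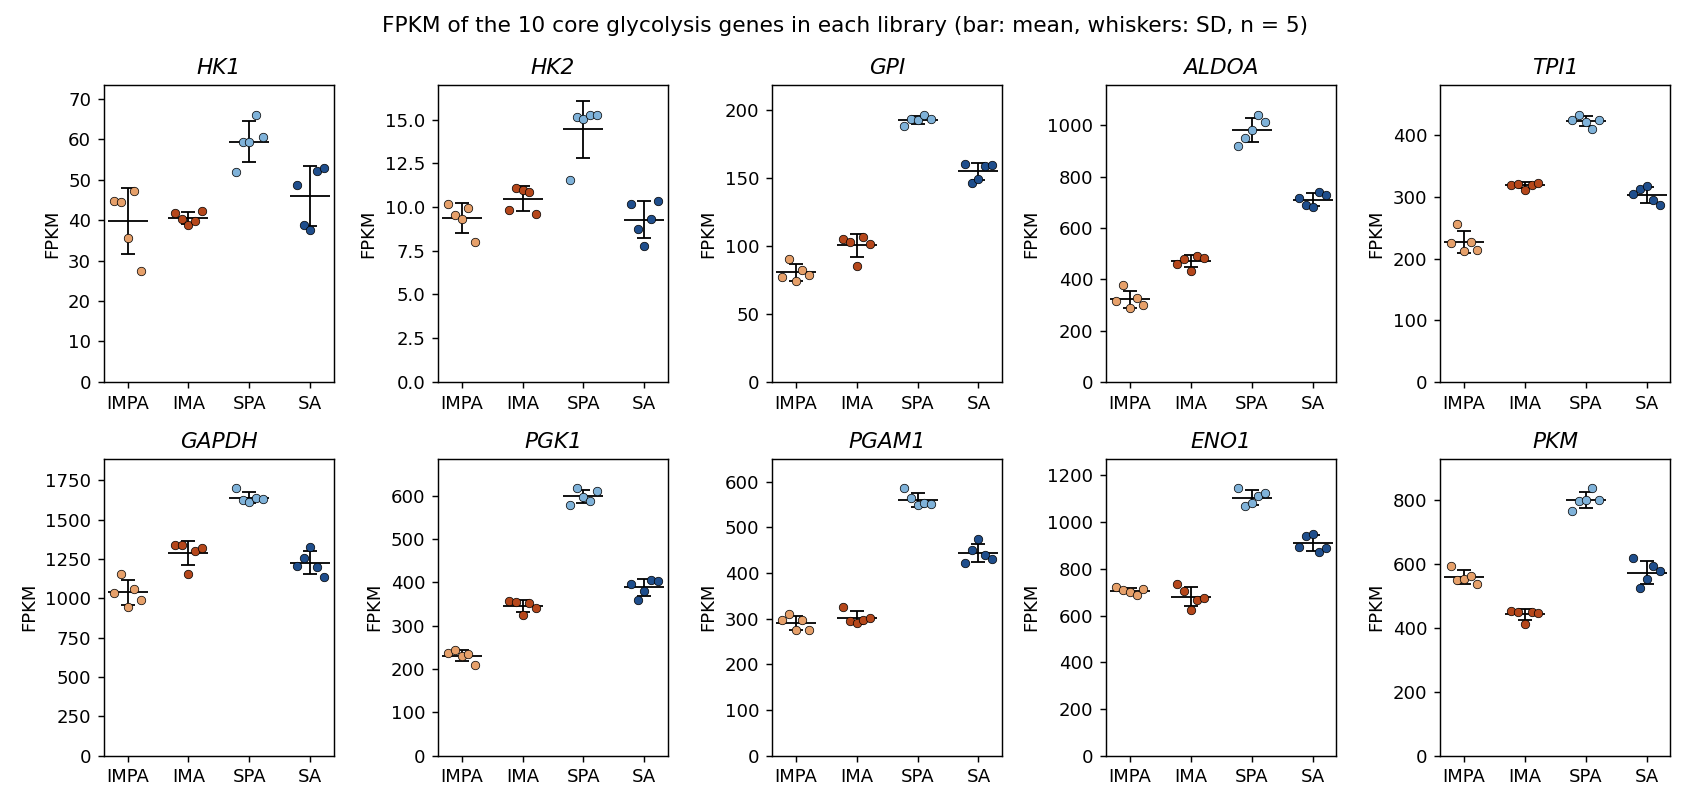
FPKM (y axis, from 0) of each of the 10 core glycolysis genes in the 5 libraries of IMPA, IMA, SPA and SA (x axis), with points for libraries, horizontal bars for the group mean and whiskers for the SD. The SPA points are the highest set in each panel and are separate from the next group in 9 panels, and the IMA points of ALDOA, TPI1, GAPDH and PGK1 sit above the highest IMPA point.

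The question of the first comparison is how intramuscular cells change on induction. In IMA, PGK1, ALDOA, TPI1, GAPDH and GPI were higher than in IMPA, by 49.8%, 46.1%, 40.9%, 24.5% and 24.2% in the fitted values, and PKM was lower by 20.8%. Thus 5 of the 10 genes rose and 1 fell at an adjusted p under 0.05 (limma, Benjamini-Hochberg over 11432 genes), where 60.1% of all genes tested passed, 19.9% higher and 40.2% lower. HK1, HK2, PGAM1 and ENO1 did not pass. The median log2 change was 0.23 over the 10 genes and -0.09 over all genes tested.

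PGK1, which makes ATP from 1,3-bisphosphoglycerate, had 238, 243, 230, 235 and 209 FPKM in IMPA libraries 1 to 5 and 358, 355, 324, 352 and 341 FPKM in IMA libraries 1 to 5. The groups did not overlap, and the log2 change on the FPKM + 1 scale was 0.58 (SE 0.0447, adjusted p = 7.19e-07). ALDOA had 315, 377, 290, 328 and 300 FPKM in IMPA and 461, 480, 433, 492 and 481 FPKM in IMA. IMPA 2 was the highest of its group and still below the lowest IMA library, and the log2 change was 0.55 (SE 0.0653, adjusted p = 2.39e-05).

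TPI1, which equilibrates the triose phosphates, had 225, 256, 212, 226 and 214 FPKM in IMPA and 320, 321, 311, 320 and 324 FPKM in IMA. The IMA libraries lay close together and above all IMPA libraries, with a log2 change of 0.49 (SE 0.0474, adjusted p = 4.29e-06). For GAPDH the IMPA libraries had 1037, 1155, 945, 1059 and 990 FPKM and the IMA libraries 1336, 1336, 1155, 1304 and 1321 FPKM. IMA 3 was the lowest IMA library by far and only just above IMPA 2, and the log2 change of 0.32 (SE 0.0580, adjusted p = 5.76e-04) became 0.36 without IMA 3. Altogether 4 of the 10 genes were higher in each IMA library than in each IMPA library, against 14.3% of all genes tested (43.5% did not overlap in either direction).

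GPI ranged from 74.5 to 90.2 FPKM in IMPA and from 85.5 to 107 FPKM in IMA, overlapping in 1 library of each group (IMPA 2 and IMA 3), with a log2 change of 0.31 (SE 0.0660, adjusted p = 0.00151). PKM, the last enzyme, which transfers phosphate from phosphoenolpyruvate to ADP, moved the other way. It had 592, 549, 553, 562 and 537 FPKM in IMPA and 453, 449, 411, 451 and 446 FPKM in IMA. No library overlapped, and the log2 change was -0.34 (SE 0.0383, adjusted p = 1.61e-05), beside 29.2% of all genes tested with IMA wholly below IMPA.

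The genes of both hexokinases and of the steps from phosphoglycerate mutase to enolase gave smaller differences. HK1 had a mean of 39.9 ± 8.20 FPKM in IMPA and 40.6 ± 1.41 FPKM in IMA (log2 change 0.05, 95% confidence interval -0.21 to 0.31, adjusted p = 0.741). HK2 had 9.38 ± 0.851 and 10.5 ± 0.703 FPKM (0.15, 0.01 to 0.29, adjusted p = 0.0681). Its call depended on the processing, since upper-quartile scaling and quantile normalization gave log2 changes of 0.22 and 0.23 with adjusted p of 0.00969 and 0.00912, and it also passed without IMA 5 (0.17, adjusted p = 0.0457) or IMPA 1 (0.17, adjusted p = 0.0492). PGAM1 had 291 ± 15.0 and 302 ± 14.1 FPKM (0.05, -0.04 to 0.15, adjusted p = 0.322), and upper-quartile scaling gave 0.14 (adjusted p = 0.0259). ENO1 had 707 ± 12.2 and 681 ± 40.6 FPKM (-0.05, -0.15 to 0.04, adjusted p = 0.277), and it passed after quantile normalization (-0.17, adjusted p = 0.0230) and for its main transcript alone (-0.28, adjusted p = 0.0252).

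The second comparison asks the same of subcutaneous cells. In SA, each of the 10 genes was lower than in SPA, by 17.7% for ENO1 to 35.0% for PGK1 in the fitted values, and each passed the test, where 52.1% of all genes tested passed, 26% lower and 26.1% higher. The fitted values are of FPKM + 1. In the ratio of mean FPKM, SA to SPA, HK2 was lowest with 0.641, beside 0.650 for PGK1. The median log2 change was -0.44 over the 10 genes and -0.01 over all genes tested. For 9 of the 10 genes each SA library lay below each SPA library, against 19% of all genes tested (19.8% had SA wholly above, 38.8% either), and HK1 overlapped.

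PGK1 had 580, 617, 597, 588 and 611 FPKM in SPA libraries 1 to 5 and 397, 358, 381, 406 and 403 FPKM in SA, a log2 change of -0.62 (SE 0.0401, adjusted p = 8.23e-08). The lowest SPA library was thus well above the highest SA library. HK2 had 11.5, 15.2, 15.0, 15.3 and 15.3 FPKM in SPA and 10.2, 8.72, 7.78, 9.32 and 10.4 FPKM in SA, a log2 change of -0.59 (SE 0.0884, adjusted p = 1.40e-04). SPA 1 stood apart below the other SPA libraries, and without it the change was -0.66.

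For PKM, SPA had 764, 796, 800, 836 and 799 FPKM and SA 617, 524, 552, 593 and 577 FPKM (log2 change -0.48, SE 0.0466, adjusted p = 3.32e-06). TPI1 had 425, 434, 422, 411 and 425 FPKM in SPA and 305, 312, 318, 295 and 287 FPKM in SA (-0.48, SE 0.0346, adjusted p = 2.35e-07). ALDOA had 921, 952, 980, 1042 and 1014 FPKM in SPA and 715, 690, 680, 741 and 727 FPKM in SA (-0.46, SE 0.0432, adjusted p = 2.31e-06). In each of these 3 genes all SA libraries lay below all SPA libraries. GAPDH had 1698, 1623, 1609, 1635 and 1629 FPKM in SPA, where library 1 was the highest, and 1208, 1256, 1329, 1202 and 1136 FPKM in SA (-0.42, SE 0.0459, adjusted p = 9.70e-06).

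Among the remaining genes HK1 went from 59.5 ± 5.04 to 46.0 ± 7.37 FPKM (-0.38, SE 0.0995, adjusted p = 0.00749) and GPI from 193 ± 3.12 to 155 ± 6.55 FPKM (-0.32, SE 0.0333). PGAM1 went from 561 ± 15.2 to 444 ± 20.4 FPKM (-0.34, SE 0.0382) and ENO1 from 1106 ± 31.3 to 910 ± 34.5 FPKM (-0.28, SE 0.0389). All 10 genes kept an adjusted p under 0.05 in each of the 22 alternative settings of this comparison, with 0.0303 as the highest, for HK1.

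**Figure D2:**
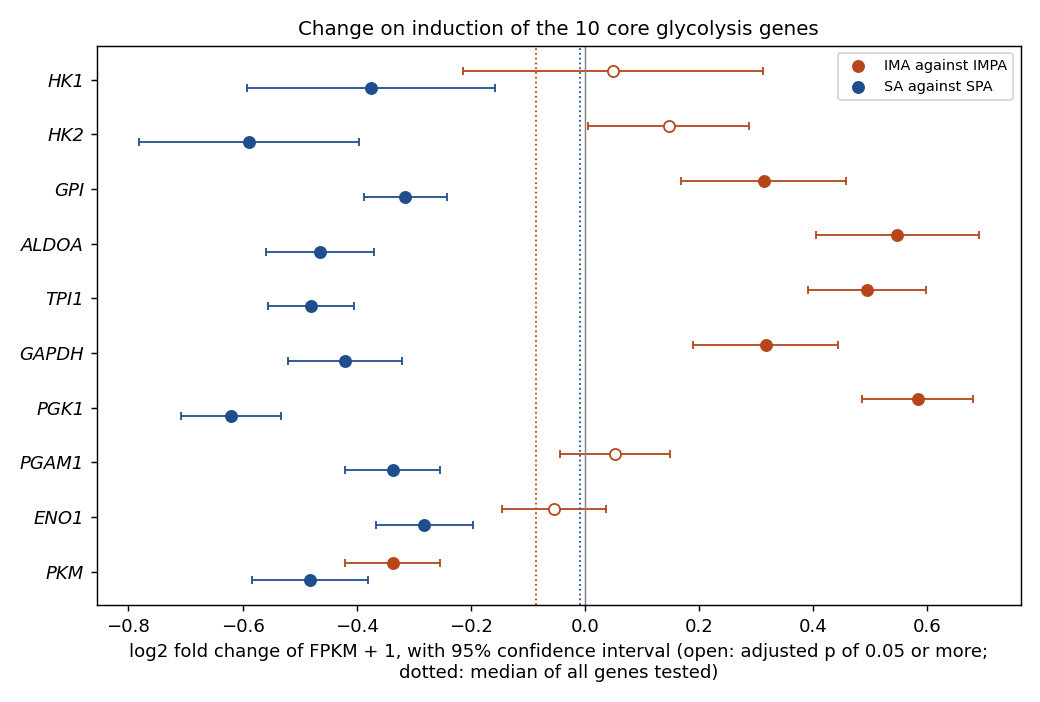
Fitted log2 fold change of FPKM + 1 on induction (x axis) for each of the 10 genes (y axis), with 95% confidence intervals, for IMA against IMPA (brown) and SA against SPA (blue). Filled points passed an adjusted p of 0.05, and dotted lines mark the median of all genes tested. The blue points lie between -0.62 and -0.28 and the brown points between -0.34 (PKM) and 0.58 (PGK1), with the brown point to the right of the blue one for each gene.

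The difference between both responses was tested directly as the interaction of stage and cell type over the 20 libraries. All 10 genes passed with a positive value, meaning that the intramuscular change was the higher one, where 55.3% of all genes tested passed, 20.7% in that direction and 34.6% in the other. PGK1 had the largest interaction, 1.20 on the log2 scale (SE 0.0605, adjusted p = 5.11e-13), and ALDOA (1.01, SE 0.0801) and TPI1 (0.97, SE 0.0594) came next. GAPDH and HK2 had 0.74 each (SE 0.0738 and 0.113), GPI 0.63 (SE 0.0768), HK1 0.42 (SE 0.166, adjusted p = 0.0354), PGAM1 0.39 (SE 0.0583), ENO1 0.23 (SE 0.0552, adjusted p = 0.00154) and PKM 0.15 (SE 0.0601, adjusted p = 0.0458).

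The smallest of these values did not pass the test in all settings. PKM was lost in 15 of the 20 fits that left out 1 library, all but those without IMPA 1, IMA 3, SPA 1, SA 1 or SA 4, although its value stayed between 0.11 and 0.17 over the 20 fits. At the same value of 0.15 it was also lost with a minimum of 0.1 FPKM (adjusted p = 0.0514), without a minimum (0.0759) and without the variance trend (0.0574), and it gave 0.01 (adjusted p = 0.892) after quantile normalization. With the most abundant transcript in place of the sum, PKM gave 0.00 (adjusted p = 0.996) and ENO1 0.01 (adjusted p = 0.921). HK1 was lost without IMPA 3, IMPA 5, IMA 1, IMA 5, SPA 4, SPA 5, SA 2 or SA 3, with adjusted p up to 0.0723 and values between 0.30 and 0.49 over the 20 fits. At the same value of 0.42 it was lost without a minimum level (adjusted p = 0.0644) and with the most abundant transcript (adjusted p = 0.0593).

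The third comparison set the intramuscular against the subcutaneous cells before induction. All 10 genes were lower in IMPA than in SPA, with no overlap for any of them, where 75.1% of all genes tested passed, 42.3% higher and 32.9% lower. Of all genes tested 63.4% had no overlap, 35.9% higher and 27.5% lower. The median log2 difference was -0.78 over the 10 genes and 0.05 over all genes tested. ALDOA differed most, with -1.61 (SE 0.0646, adjusted p = 1.74e-10), so that IMPA held 0.328 times the SPA level, and PGK1 (-1.37, SE 0.0412) and GPI (-1.25, SE 0.0462) were next. PGAM1 differed by -0.94 (SE 0.0389), TPI1 by -0.90 (SE 0.0474), GAPDH by -0.66 (SE 0.0484) and ENO1 by -0.64 (SE 0.0303). HK1 (-0.59, SE 0.126, adjusted p = 0.00104), HK2 (-0.57, SE 0.0809) and PKM (-0.52, SE 0.0354) differed least. Each of the 10 calls held in each of the 22 alternative settings.

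After induction the same contrast, IMA against SA, gave 6 genes lower in IMA and none higher, where 72.4% of all genes tested passed, 43.4% lower and 29% higher. The genes lower in IMA were GPI (-0.62, SE 0.0580), ALDOA (-0.60, SE 0.0449), PGAM1 (-0.55, SE 0.0450), ENO1 (-0.42, SE 0.0486), PKM (-0.37, SE 0.0495) and PGK1 (-0.17, SE 0.0454, adjusted p = 0.00448), and these were also the 6 without overlap, where 58.6% of all genes tested had none, 34.7% lower and 24% higher. GAPDH had 1290 ± 76.8 FPKM in IMA and 1226 ± 71.6 FPKM in SA, a log2 difference of 0.07 (95% confidence interval -0.04 to 0.19, adjusted p = 0.240). TPI1 had 319 ± 4.85 and 303 ± 12.5 FPKM, a difference of 0.07 (-0.01 to 0.15, adjusted p = 0.105). HK2 (0.16, 0.01 to 0.32, adjusted p = 0.0536) and HK1 (-0.16, -0.35 to 0.03, adjusted p = 0.114) did not pass either.

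The 4 genes that did not pass did so in some settings. HK2 passed with 0.18 and 0.19 (adjusted p = 0.0334 and 0.0241) after upper-quartile scaling and quantile normalization, and with 0.19 to 0.20 without IMA 1, IMA 5, SA 1 or SA 5 (adjusted p from 0.0240 to 0.0480). HK1 passed without SA 2 (-0.22, adjusted p = 0.0337) or SA 3 (-0.23, adjusted p = 0.0168). GAPDH passed with 0.19 (adjusted p = 6.31e-04) after quantile normalization, and TPI1 with 0.08 (adjusted p = 0.0250) when the libraries were scaled to the same mRNA sum and with 0.09 (adjusted p = 0.0448) without SA 3. The 4 comparisons of stage and cell type share libraries in pairs, so their values stand side by side and were not used to support each other.

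**Figure D3:**
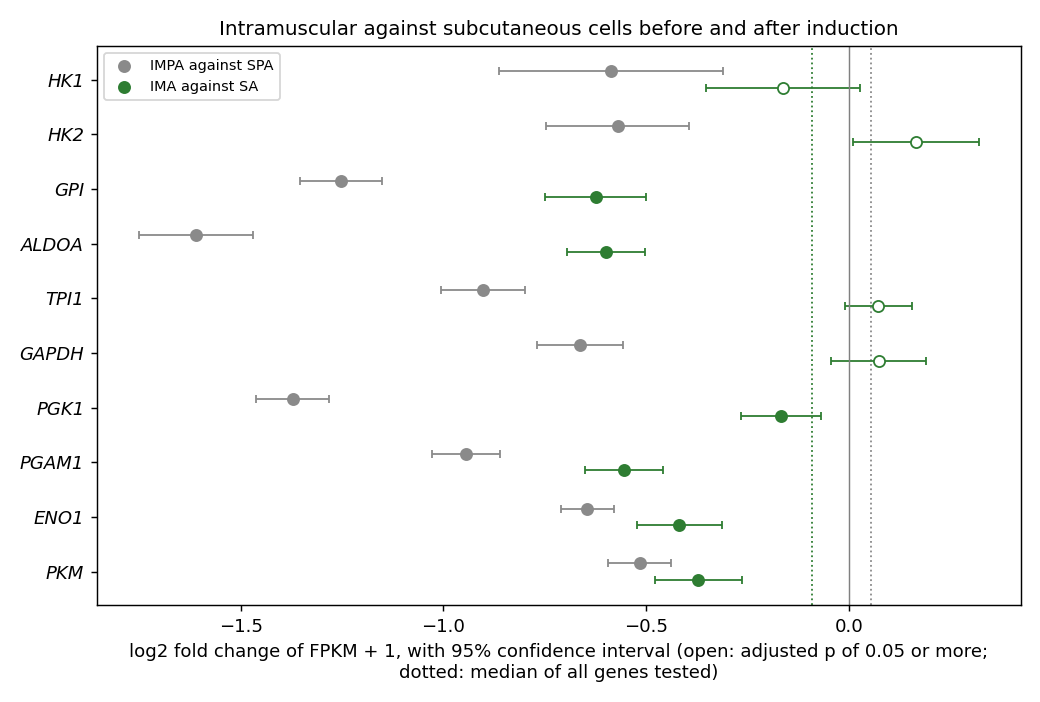
Fitted log2 difference of FPKM + 1 between intramuscular and subcutaneous cells (x axis) for each of the 10 genes (y axis), with 95% confidence intervals, before induction (IMPA against SPA, grey) and after it (IMA against SA, green). Filled points passed an adjusted p of 0.05, and dotted lines mark the median of all genes tested. The grey points run from -1.61 to -0.52 and the green points from -0.62 to 0.16, with HK1, HK2, TPI1 and GAPDH open after induction.

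Transcripts could be separated for 3 of the 10 genes, and the other 7 were represented by a single transcript each. PKM has 2 transcripts in the table, XM_005685176.3 with 91.2% and XM_005685177.3 with 8.77% of the FPKM of the gene over the 20 libraries. The gene's known splice forms M1 and M2 differ by 1 exon, and the table does not say which transcript is which. The second transcript held 8.61% ± 0.443 in IMPA, 17.6% ± 1.81 in IMA, 5.87% ± 0.154 in SPA and 6.12% ± 1.21 in SA. Its level went from 48.1 ± 3.00 to 78.1 ± 10.6 FPKM between IMPA and IMA while the main transcript went from 510 ± 19.2 to 364 ± 7.62 FPKM. The log2 ratio of the main to the second transcript was thereby 1.18 lower in IMA than in IMPA (2.23 ± 0.186 against 3.41 ± 0.0821, two-sided exact permutation test, p = 0.00794, adjusted p = 0.0119 over 12 ratio tests), and 0.00794 is the smallest p that 5 libraries against 5 allow. Between SA and SPA it differed by -0.04 (3.96 ± 0.320 against 4.00 ± 0.0400, exact permutation p = 0.905).

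ALDOA has 4 transcripts, of which XM_018039935.1 held 88.7% of the FPKM. Its share was 89.3% ± 0.595 in IMPA, 77.4% ± 0.873 in IMA, 91.7% ± 4.57 in SPA and 91.9% ± 0.647 in SA. Each of the 3 minor transcripts had a higher mean in IMA than in IMPA, with 31.8 ± 2.04 against 8.44 ± 3.02 FPKM for XM_005697671.2, 43.0 ± 4.42 against 17.0 ± 2.93 FPKM for XM_005697674.3 and 31.5 ± 5.52 against 8.92 ± 2.05 FPKM for XM_013974696.1. The main transcript had 363 ± 15.9 FPKM in IMA and 288 ± 29.7 FPKM in IMPA.

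For ENO1 the main transcript XM_018060394.1 held 88.5% ± 0.648 in IMPA, 76.1% ± 10.1 in IMA, at least 99.9% in each SPA library and 99.0% ± 2.23 in SA. The other transcript, XM_018060395.1, was singled out after its values were seen. It had 78.8, 77.8, 80.1, 82.4 and 88.6 FPKM in IMPA, 212, 43.5, 167, 176 and 213 FPKM in IMA and under 1 FPKM in each SPA library. In SA it had 44.6 FPKM in library 1 and at most 0.104 FPKM in the others. IMA 2 and SA 1 thus stood apart from their groups in how ENO1 was divided between its transcripts, although their summed ENO1 values (704 and 895 FPKM) lay within the range of their groups. The StringTie values divide fragments between overlapping transcripts by estimation, so these shares are less certain than the sums.

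Related genes encode other forms of the same enzymes, and their levels were set beside those of the 10 genes. Of the other 16 isoforms and related enzymes of these steps, 9 reached the minimum level, and on induction 6 rose and 1 fell in intramuscular cells while 1 rose and 6 fell in subcutaneous cells, with median log2 changes of 0.26 and -0.39. Counts of this and the following lists stand beside 19.9% of all genes tested that rose and 40.2% that fell in IMA, and 26.1% and 26% in SA. PGAM2, the muscle form of phosphoglycerate mutase, had 32.4 ± 2.71 FPKM in IMPA and 154 ± 5.20 FPKM in IMA (log2 change 2.21, SE 0.05, adjusted p = 3.09e-11) and stayed under 1 FPKM in each subcutaneous library. It made up 10.0% ± 1.07 of the FPKM of PGAM1 and PGAM2 together in IMPA and 33.8% ± 1.60 in IMA. ENO3, the muscle enolase, had 13.2 ± 0.989 and 49.4 ± 2.56 FPKM (1.83, adjusted p = 1.53e-10) and 1.43 ± 0.163 and 1.49 ± 0.404 FPKM in SPA and SA. ENO1 nevertheless held 91.9% ± 0.583 of the enolase FPKM in IMA and 96.8% to 98.4% on average in the other groups.

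Phosphofructokinase, the committed step, has no gene among the 10, and its isoforms were read as a neighbour of ALDOA and GPI. PFKL, PFKM and PFKP together had 54.5 ± 2.51 FPKM in IMPA, 64.0 ± 4.87 in IMA, 197 ± 9.87 in SPA and 114 ± 1.60 in SA. PFKP, the platelet form, held 60.8% ± 1.19 of it in SPA and 58.3% ± 0.915 in SA, but 29.3% ± 2.12 in IMPA and 30.3% ± 1.70 in IMA. PFKM, the muscle form, rose in IMA from 7.27 ± 0.462 to 14.8 ± 1.01 FPKM (0.94, adjusted p = 7.75e-08) and fell in SA from 6.74 ± 1.26 to 4.91 ± 1.11 FPKM (-0.39, adjusted p = 0.0398). PFKL fell in SA (-0.71, adjusted p = 7.06e-08) and had a log2 change of -0.08 in IMA (adjusted p = 0.508). ALDOC rose in IMA (0.40) and fell in SA (-0.54), although ALDOA held over 99% of the aldolase FPKM in each library. HK1 held 78.4% to 82.0% of the hexokinase FPKM on average, and the log2 ratio of HK2 to HK1 was 0.26 lower in SA than in SPA (exact permutation p = 0.0159, adjusted p = 0.0212 over 12 tests) and 0.35 higher in IMA than in SA (exact permutation p = 0.00794, adjusted p = 0.0119).

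**Figure D4:**
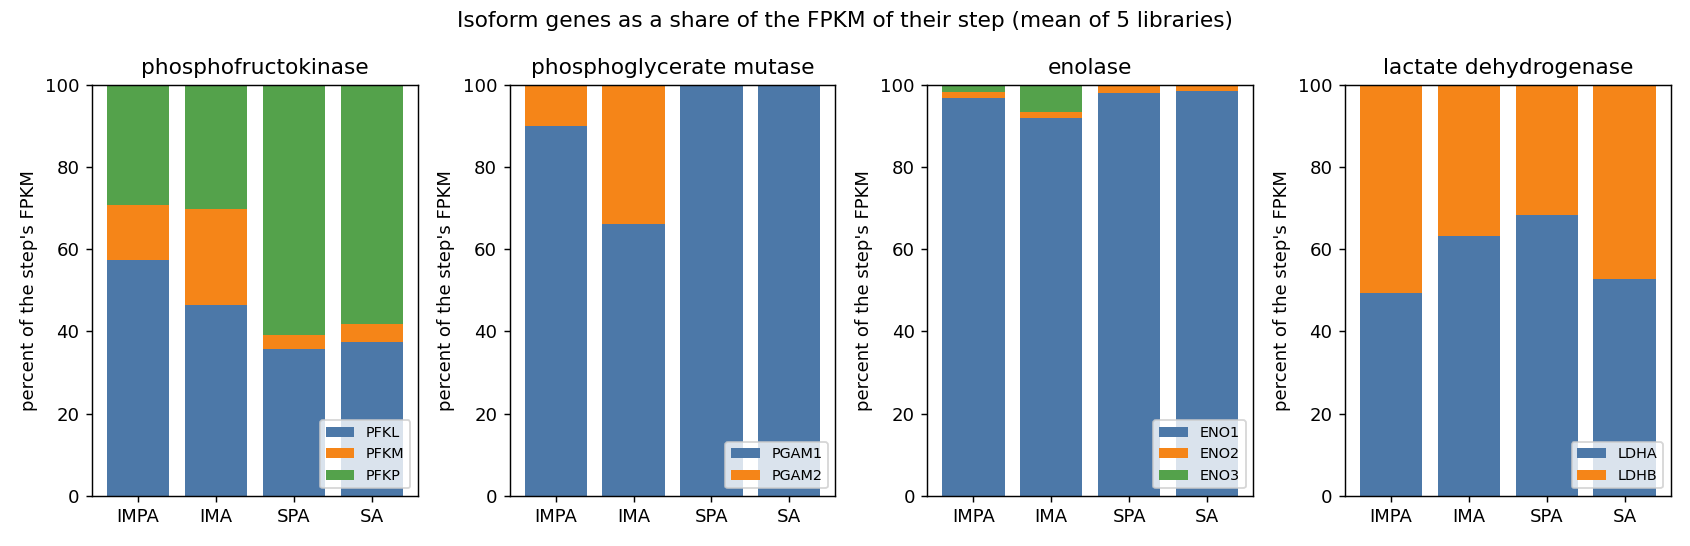
Share of the FPKM of a step (y axis, percent, mean of 5 libraries) held by each isoform gene in IMPA, IMA, SPA and SA (x axis), for phosphofructokinase, phosphoglycerate mutase, enolase and lactate dehydrogenase. PGAM2 goes from 10.0% in IMPA to 33.8% in IMA and is under 0.1% on average in both subcutaneous groups, and LDHA holds 49.4%, 63.2%, 68.4% and 52.8% in IMPA, IMA, SPA and SA.

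Pyruvate can be reduced to lactate by lactate dehydrogenase, and LDHA, the form that favours lactate, followed the direction of PGK1 in both responses. LDHA had 258 ± 30.9, 367 ± 16.5, 510 ± 20.4 and 311 ± 16.3 FPKM in IMPA, IMA, SPA and SA, and it rose in IMA (0.51, adjusted p = 9.24e-05) and fell in SA (-0.71, adjusted p = 4.57e-08). LDHB moved the opposite way in both, by -0.30 (adjusted p = 4.50e-05) and 0.24 (adjusted p = 2.84e-04). The log2 ratio of LDHA to LDHB was -0.03 ± 0.229 in IMPA, 0.78 ± 0.0908 in IMA, 1.12 ± 0.0729 in SPA and 0.16 ± 0.142 in SA, and each of the 4 comparisons gave the smallest possible p (exact permutation p = 0.00794, adjusted p = 0.0119). SLC16A3, a lactate exporter, rose in IMA (0.91, adjusted p = 7.13e-04) and fell in SA (-0.85, adjusted p = 1.55e-08). Other genes of this list did not share that pattern. SLC16A7 fell in both (-0.61, adjusted p = 1.84e-04, and -1.06, adjusted p = 2.99e-09). SLC16A1 rose in both (0.13, adjusted p = 0.0266, and 0.43, adjusted p = 1.16e-06). Over the 6 measured genes of lactate production and export, 3 rose and 3 fell in IMA and 2 rose and 3 fell in SA.

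Among 7 measured glucose transporters, 2 rose and 1 fell in IMA, and 2 rose and 4 fell in SA. SLC2A3, a transporter with high affinity for glucose, rose from 51.8 ± 5.96 to 98.5 ± 22.2 FPKM in IMA (0.89, adjusted p = 4.22e-04) and fell from 100.3 ± 4.17 to 69.8 ± 3.37 FPKM in SA (-0.52, adjusted p = 4.28e-07). SLC2A1 had a log2 change of 0.13 in IMA (adjusted p = 0.265) and fell in SA (-0.32, adjusted p = 2.76e-04). SLC2A4, the insulin-responsive transporter, did not exceed 1.24 FPKM in any library. PFKFB3, whose product fructose 2,6-bisphosphate activates phosphofructokinase, rose in IMA (0.39, adjusted p = 0.00136) and fell in SA (-0.75, adjusted p = 1.57e-06).

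At the exit from glycolysis, 13 genes of pyruvate entry into mitochondria were measured, of which 7 rose and 3 fell in IMA and 4 rose and 5 fell in SA. PDK4, a kinase that turns pyruvate dehydrogenase off, rose in both, from 1.33 ± 0.326 to 9.25 ± 0.759 FPKM in intramuscular cells (2.15, adjusted p = 3.75e-09) and from 3.98 ± 0.258 to 9.11 ± 0.490 FPKM in subcutaneous cells (1.02, adjusted p = 1.01e-08). PDK1 rose in IMA (0.47, adjusted p = 1.66e-04) and fell in SA (-0.40, adjusted p = 5.67e-05). In the pentose phosphate pathway, the branch that makes NADPH from glucose 6-phosphate, all 6 measured genes fell in IMA, among them PGLS (-0.50) and PGD (-0.40). Of 11 glycogen genes 7 rose, among them the muscle phosphorylase PYGM (1.11), and 1 fell in IMA, and 2 rose and 7 fell in SA, led by GYS1 (-0.71). PYGM is also among those that fell in SA, but at 0.238 and 0.0506 FPKM in SPA and SA. It reached the minimum level only through the intramuscular libraries, so its subcutaneous call is one near 0. Of 6 genes of gluconeogenesis and glycerol 3-phosphate 1 rose and 2 fell in IMA and 2 rose and 2 fell in SA, with PCK2 at -0.65 and 1.03.

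Markers that could move with these genes were read in the same libraries. HIF1A rose in IMA from 65.2 ± 11.2 to 95.6 ± 9.73 FPKM (0.56, adjusted p = 9.23e-04) and fell in SA from 137 ± 1.39 to 104 ± 7.99 FPKM (-0.39, adjusted p = 1.76e-05). EPAS1, another of the 8 measured regulators of glycolytic genes, fell in IMA (-0.61, adjusted p = 0.00332) and in SA (-0.95, adjusted p = 1.38e-04). It had the largest change of the called regulators in both comparisons. Among the 8 regulators 3 rose and 2 fell in IMA, and 4 fell in SA. Of 14 measured genes that are known to respond to hypoxia and lie outside glycolysis, 8 rose and 2 fell in IMA, 12 fell and none rose in SA, 12 were lower and none higher in IMPA than in SPA, and 11 had a positive interaction and none a negative one. Of all genes tested, 32.9% were lower in IMPA than in SPA and 20.7% had a positive interaction. ANKRD37 rose in IMA (1.26) and fell in SA (-1.28), BNIP3 gave 0.71 and -1.02 and VEGFA 0.54 and -0.95, while ADM fell in both (-0.89 and -0.77). The summed FPKM of the list ranged from 933 to 1265 in IMPA, 971 to 1193 in IMA, 2119 to 2248 in SPA and 1425 to 1537 in SA, with CA9 at most at 0.327 FPKM. The part of hypoxia-inducible expression in the glycolytic changes was not tested, and the oxygen level of the cultures is not among the labels.

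Skeletal muscle markers moved with the intramuscular change. Of 17 measured, 16 rose and 1 (MYOD1) fell in IMA, with summed FPKM from 3641 to 4172 in IMPA and from 13161 to 13975 in IMA. In the subcutaneous libraries the sum ranged from 10.4 to 28.9 FPKM and was highest for TNNT3, at 6.41 FPKM in SPA and 6.93 FPKM in SA, with MYOD1 and CKM under 0.1 FPKM on average. The minimum level was a mean over all 20 libraries, so markers this low in subcutaneous cells were tested there through their intramuscular level. In SA 1 marker rose (TNNI1, 0.29) and 3 fell (MYF5, -0.35, TNNC2, -0.32, and NEB, -0.28). Proliferation markers moved as well. Of 14 measured, none rose and 11 fell in IMA and 14 rose in SA, with summed FPKM from 200 to 239 in IMPA, 158 to 191 in IMA, 99.2 to 114 in SPA and 391 to 442 in SA. Of 6 measured fibroblast and preadipocyte markers, none rose and 2 fell in IMA and 1 rose and 4 fell in SA, among them THY1 (-1.21), PDGFRA (-0.81) and DCN (-0.40), and 4 were lower in IMPA than in SPA. Their summed FPKM ranged from 4427 to 6964 in IMPA, 5908 to 6642 in IMA, 11156 to 11546 in SPA and 10206 to 10509 in SA. Of 5 immune markers PTPRC, AIF1 and CSF1R stayed under 0.1 FPKM, while CD68 rose in IMA (0.33) and fell in SA (-0.55) and CD14 rose in IMA (0.70). CDH1, an epithelial cadherin, had 20.3, 31.8, 0.0150 and 0.00512 FPKM in IMPA, IMA, SPA and SA and rose in IMA (0.63), with EPCAM and KRT8 under 1 FPKM in each library. The part of these marker sets in the changes of the 10 genes was not tested. In RNA from whole cultures, a change in the share of a cell type and a change of RNA per cell cannot be told apart.

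**Figure D5:**
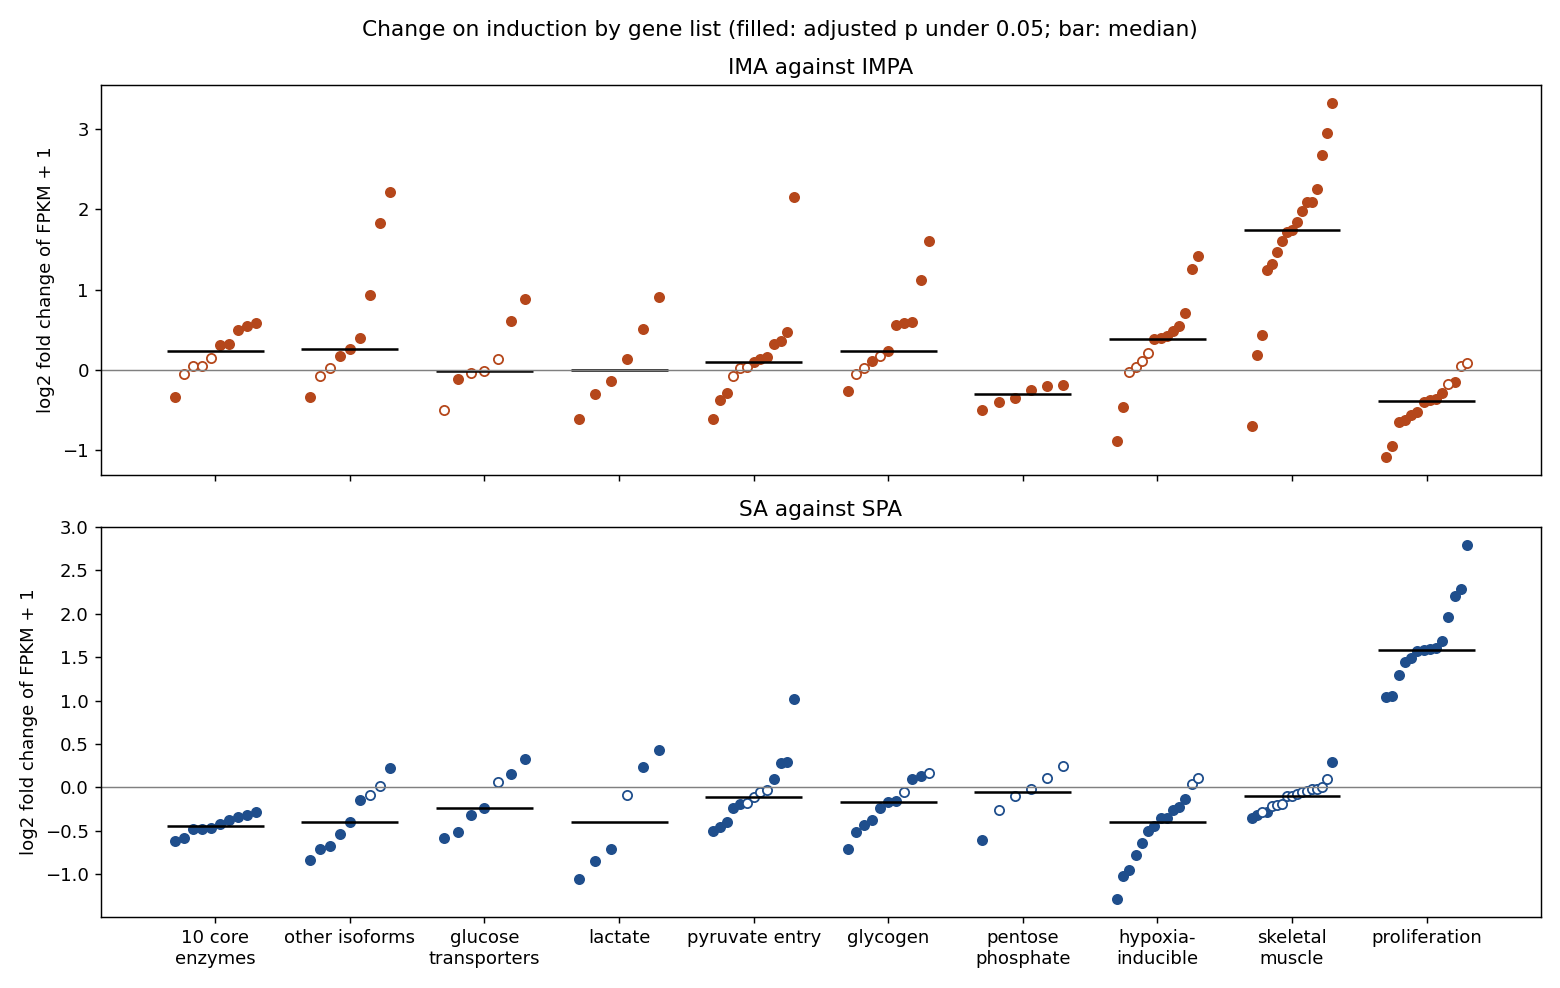
Fitted log2 fold change of FPKM + 1 on induction (y axis) in IMA against IMPA (upper panel) and SA against SPA (lower panel) for the 10 core enzymes and 9 lists of related or marker genes (x axis), 1 point per gene tested, filled where the adjusted p was under 0.05, with a bar at the median of each list. The median of the 10 core enzymes is 0.23 above and -0.44 below, that of hypoxia-inducible genes 0.39 and -0.40, that of muscle markers 1.74 and -0.09, and that of proliferation markers -0.39 and 1.59.

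GAPDH and PGK1 are often used as reference genes for qPCR, and both changed in all of the comparisons except GAPDH between IMA and SA. Their lowest and highest library differed by 1.80 times for GAPDH and by 2.95 times for PGK1. Over a list of 13 common reference genes that includes both, 2 rose and 7 fell in IMA and 3 rose and 7 fell in SA. ACTB fell in both (-0.52 and -0.58), and RPLP0 had a log2 change of -0.03 in IMA (adjusted p = 0.367) and rose in SA (0.19, adjusted p = 0.00452).

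Genes with a profile most like the mean profile of the 10 were found by the root mean square difference of log2(FPKM + 1), each centred on its own mean, over the 20 libraries. The 8 closest were KDM7A (0.07), MAP2K1 (0.07), GLUL (0.07), GRAMD1A (0.08), JAK1 (0.08), ANXA11 (0.08), HADHA (0.09) and KCTD11 (0.09), against a median of 0.40 over all genes tested. MAP2K1, a kinase of the MAPK cascade, had 29.9 ± 0.641, 34.9 ± 1.32, 58.1 ± 2.00 and 41.8 ± 1.52 FPKM in IMPA, IMA, SPA and SA. Among the 10 genes themselves PGAM1 (0.12), ENO1 (0.13) and TPI1 (0.14) lay nearest to their own mean profile and ALDOA (0.29) farthest. TPI1 and GAPDH lie on the same chromosome with 18 protein-coding genes between them in the RefSeq annotation of the ARS1.2 assembly, and ENO2 lies 2 genes from TPI1.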

How the data were processed

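RNA of 20 goat cell samples was sequenced as strand-specific libraries. Reads were aligned by the authors to the goat assembly ARS1 (HISAT2 2.0.4), and StringTie 1.3.1 with Ballgown gave the deposited FPKM of each transcript. The submitters' processing notes also name GATK 2.6-5. Nothing was realigned. Lengths and mapped reads are divided out, so the read number behind a value is unknown. FPKM was summed per symbol, with LDHA found as LDH-A by its gene ID. Symbols with a mean of at least 1 FPKM were compared as log2(FPKM + 1), which understates changes of low genes, with limma 3.58.1 (moderated variances with a trend, R 4.3.3), in fits of the 10 libraries compared or of 20 for the interaction, with Benjamini-Hochberg adjustment over all 11432 genes. All adjusted p-values of single genes come from limma. For ratios, exact permutation tests (two-sided) ran over 252 divisions of the libraries.

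The 10 genes and all lists were chosen with earlier results of these data known. Named were the 10 genes with transcripts holding at least 10% of a gene, up to 4 genes per list and comparison with the largest change among those called, isoforms of the same steps, and the 8 genes most like the 10. SLC2A4, CA9, RPLP0, the remaining minor transcripts and the single cell type markers named outside that rule were chosen after their values were seen. Summed immune markers reached at most 18.2 FPKM in a library and ALAS2, a blood marker, at most 0.0288 FPKM. Of 7 genes of glycolytic control 3 rose in IMA and 1 rose and 4 fell in SA, and of 8 regulators 3 rose and 2 fell in IMA and 4 fell in SA.

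On simulated data with the spread of these libraries, 92.5% and 91.0% of genes with a true log2 change of 0.5 were called in the intramuscular and subcutaneous comparison, 100% and 100% at 1, and 100% and 98.5% at 2, with 12 and 3 calls among 11232 unchanged genes. Few genes were changed in the simulation, and the spread was drawn for each gene separately. In the real comparisons 60.1% and 52.1% of genes were called, so these shares and counts do not carry over to them. The lncRNA tables were used only in 1 alternative and for the share of LNC_010228. Figures were drawn with Python 3.11.15 and matplotlib 3.10.9.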

Additional observations from a re-analysis of the deposited data

Results flagged for a closer look

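In 5 of the 40 groups of 5 libraries (10 genes in 4 groups), 1 library lay farther from the others than Dixon's 95% limit for 5 values allows. Chance gives this in about 1 of 20 groups that are independent. The 40 groups share libraries, and all 5 cases fell on IMA 3 or SPA 1, so that rate cannot be set against 5 of 40. IMA 3 was the lowest IMA library for GPI (85.5 FPKM, the next 101 FPKM), GAPDH (1155 FPKM, the next 1304 FPKM) and PKM (411 FPKM, the next 446 FPKM). SPA 1 was the lowest SPA library for HK2 (11.5 FPKM, the next 15.0 FPKM) and the highest for GAPDH (1698 FPKM, the next 1635 FPKM). Without IMA 3 the intramuscular comparison still called 6 of the 10 genes, and without SPA 1 the subcutaneous comparison still called 10.

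In the interaction test each of the 10 genes passed with a positive value, intramuscular minus subcutaneous on the log2 scale. Of all genes tested, 20.7% passed in that direction and 34.6% in the other. The values of the 10 genes were 0.42 for HK1, 0.74 for HK2, 0.63 for GPI, 1.01 for ALDOA, 0.97 for TPI1, 0.74 for GAPDH, 1.20 for PGK1, 0.39 for PGAM1, 0.23 for ENO1 and 0.15 for PKM. The calls of HK1, ENO1 and PKM did not hold in all settings. For ALDOA, TPI1, GAPDH and PGK1 every IMA library lay above every IMPA library and every SA library below every SPA library. Of all genes tested, 14.3% had IMA wholly above IMPA and 19% had SA wholly below SPA, and the share with both was not counted. For GAPDH the lowest IMA library (1155.25 FPKM) was only just above the highest IMPA library (1154.65 FPKM).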

How the results depend on the processing

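The number of the 10 genes called was 10 in every setting for SA against SPA and for IMPA against SPA, and ranged from 6 to 8 for IMA against IMPA, from 6 to 8 for IMA against SA and from 7 to 10 for the interaction, with the 7 for the most abundant transcript of each symbol. Leaving out 1 library gave 6 to 7, 6 to 8 and 8 to 10. Under the most abundant transcript the PKM interaction turned to -0.000442 (adjusted p = 0.996), which follows from leaving out its second transcript. Scaling the libraries to the same mRNA sum moved the summed FPKM of the 10 genes to 6543 in SPA and 4657 in SA. No such scaling moved the median log2 change of all genes by over 0.1, but the split of higher and lower calls moved, from 2276 and 4591 to 3110 and 3317 (upper quartile) for IMA against IMPA, from 2982 and 2975 to 2327 and 4052 (same mRNA sum) for SA against SPA, from 4831 and 3757 to 4096 and 4609 (quantile) for IMPA against SPA, and from 2368 and 3951 to 3022 and 3121 (upper quartile) for the interaction.

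Groups share replicate numbers, but deviations of same-numbered libraries correlated between -0.24 and 0.12, so the numbers were not taken as pairs. With the number as a block 7 of the 10 genes were called in IMA against IMPA (HK2 added, adjusted p = 0.0426) and 6826 genes in all instead of 6867, and the block changed no other call of the 10 genes. Not every library correlated best with its own number. The 12 ratio tests kept their side of the threshold in every setting tried.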
